A study of Homo sapiens with 12 samples.

Results

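The 55 genes described here lie on the long arm of human chromosome 13, from ZMYM2 near the centromere to CDC16 near the telomere. They were listed by symbol, out of 28278 genes in the count table, because the median level of the chromosome was higher in knockout cells than in unedited cells. The comparison of knockout with unedited cells therefore chose them, and its values are given below as a description without a test. All 55 were found in the table, and all passed the filter on low counts, together with 217 other chromosome 13 genes among 15805 tested genes. The libraries came from K562, an erythroleukaemia line from human bone marrow that can make haemoglobin. Cells were either unedited (WT) or carried a knockout of HRG1 (KO), the heme transporter encoded by SLC48A1. Each genotype was left untreated or received 0.75 mM sodium butyrate, a histone deacetylase inhibitor, 24 h after plating and again 48 h later, with collection 6 h after that. This gave 4 groups of 3 libraries: untreated WT, treated WT, untreated KO and treated KO. How many KO clones were used, and whether libraries of a group came from separate cultures, is not given in the sources used here, so tests measure only the spread between these libraries. One KO line or clone may stand behind all KO libraries, and a difference of that line cannot be told apart from a difference of the genotype.

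Chromosome 13 is acrocentric, so its protein-coding genes sit on the long arm. When a stretch of a chromosome is present in more copies, transcripts of its genes usually rise together, and when single genes rise less than the rest they are called buffered. Subunits of protein complexes are often buffered at the protein level, where excess subunits are degraded. DNA copy number and protein were not measured in these samples, so the values below are transcript levels alone.

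Promoters are shown for 4 members. CDK8 ends the first members, which as a group had little KO minus WT difference. GTF3A begins the members whose median was close to 2-fold higher in KO. GTF3A itself differed by less, 0.69 (log2, SE 0.34) untreated and 0.38 (SE 0.34) treated. UBL3 and TSC22D1 had the highest KO minus WT differences. Each line gives the 250 bases before the annotated start, 5′ to 3′, from RefSeq (GRCh38.p14), with every CG dinucleotide in capitals. The CDK8 promoter is at chr13:26253879-26254128 (plus strand), that of GTF3A at chr13:27424369-27424618 (plus strand), that of UBL3 at chr13:29850618-29850867 (minus strand) and that of TSC22D1 at chr13:44576566-44576815 (minus strand, 1 of 5 starts listed).
CDK8: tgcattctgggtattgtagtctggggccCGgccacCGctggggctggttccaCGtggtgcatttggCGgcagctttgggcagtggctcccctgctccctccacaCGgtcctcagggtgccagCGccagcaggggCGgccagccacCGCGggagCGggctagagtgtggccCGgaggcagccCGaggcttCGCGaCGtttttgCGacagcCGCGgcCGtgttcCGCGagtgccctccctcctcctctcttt
GTF3A: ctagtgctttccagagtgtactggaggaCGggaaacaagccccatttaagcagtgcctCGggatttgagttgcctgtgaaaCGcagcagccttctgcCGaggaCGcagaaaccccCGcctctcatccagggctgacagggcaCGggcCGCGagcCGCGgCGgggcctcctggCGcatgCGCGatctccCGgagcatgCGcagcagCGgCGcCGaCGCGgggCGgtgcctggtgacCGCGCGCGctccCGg
UBL3: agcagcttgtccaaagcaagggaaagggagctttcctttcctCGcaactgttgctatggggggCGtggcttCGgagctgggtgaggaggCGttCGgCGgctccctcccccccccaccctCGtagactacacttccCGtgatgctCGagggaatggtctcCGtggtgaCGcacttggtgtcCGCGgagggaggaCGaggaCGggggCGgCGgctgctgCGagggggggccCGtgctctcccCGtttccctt
TSC22D1: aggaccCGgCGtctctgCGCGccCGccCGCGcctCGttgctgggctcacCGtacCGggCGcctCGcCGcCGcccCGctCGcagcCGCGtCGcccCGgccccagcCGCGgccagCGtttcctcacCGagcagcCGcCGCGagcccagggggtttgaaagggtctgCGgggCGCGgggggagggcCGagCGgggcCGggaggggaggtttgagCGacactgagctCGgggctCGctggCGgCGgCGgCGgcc
All 4 were rich in CG, with 21 such dinucleotides in CDK8, 28 in GTF3A, 20 in UBL3 and 40 in TSC22D1. A promoter was found in the RefSeq table for 52 of the 55 members, CENPJ under its synonym CPAP, and not for PARP4, SAP18 and ITM2B. The median G+C content of the 52 was 65.4%, against 58.0% over the 27305 promoters of the table, and the ratio of observed to expected CG was 0.881 against 0.556. The motif GGGCGG, searched on both strands and itself holding a CG, was present in 37 of 52 members (71.2%) and in 42.3% of all promoters. It was present in 7 of the 7 matched members from ZMYM2 to CDK8 (100%) and in 30 of 45 from GTF3A on (66.7%). Any relation of the motif to the KO minus WT difference was not tested. CCAAT, searched on both strands, was present in 26.9% of members and 33% of all promoters. A match describes these letters only. For every gene the first listed start was used. The 27305 promoters were not limited to tested genes, while all members were tested.

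Library totals ran from 19963594 to 30348538 counts. SLC48A1 lay between 58.9 and 83.8 CPM (counts scaled to library size with edgeR's TMM factors) in the 6 WT libraries and between 2.94 and 10.1 CPM in the 6 KO libraries, so every library went with its genotype label. All 12 markers fixed for K562 and erythroid cells exceeded 3 counts in every library. Their summed level was 6128 to 12560 CPM in untreated WT and 3457 to 5083 CPM in untreated KO, and 16467 to 40867 CPM in treated WT and 4514 to 6750 CPM in treated KO. Markers of T cells summed to 1.07 to 15.5 CPM, those of B cells to 2.78 to 13.1 CPM and those of macrophages to 3.16 to 58.7 CPM, with MS4A1 and C1QA at 0 counts throughout. The 4 fibroblast markers, led by COL1A1, summed to at most 5.02 CPM untreated and to 43.9 to 154 CPM in treated libraries of both genotypes. Their part in the results below was not tested. Replicate 1 of treated WT stood apart from its group, in that leaving it out raised the number of genes called for butyrate in WT from 372 to 1243. In bulk samples, a lower level per cell and fewer cells of a type cannot be told apart.

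The KO minus WT shift was not uniform along the arm. The first 9 members, ZMYM2 to CDK8, lay near no difference, while the 46 from GTF3A to CDC16 were on balance close to 2-fold higher in KO. In untreated cells the median log2 difference was 0.06 over the first 9 (range -0.62 to 0.54) and 0.95 over the other 46 (interquartile range 0.76 to 1.23, a median fold of 1.93). In treated cells it was 0.26 and 0.86 (interquartile range 0.59 to 1.22, a median fold of 1.81). The border between CDK8 and GTF3A was set after these values were seen. The name of the list, higher in KO, thus described the 46 distal members as a group better than the 9 proximal ones. It did not sort every member. LATS2 of the 9 was higher in both settings (0.54 and 0.58), and ELF1 of the 46 was lower in untreated KO (-0.30). Over all 55 members the median was 0.87 untreated and 0.76 treated, against 0.02 and 0.00 over all tested genes. The other 217 tested chromosome 13 genes, which are also part of the chromosome median that chose the list, had medians of 0.95 and 0.84.

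**Figure D1:**
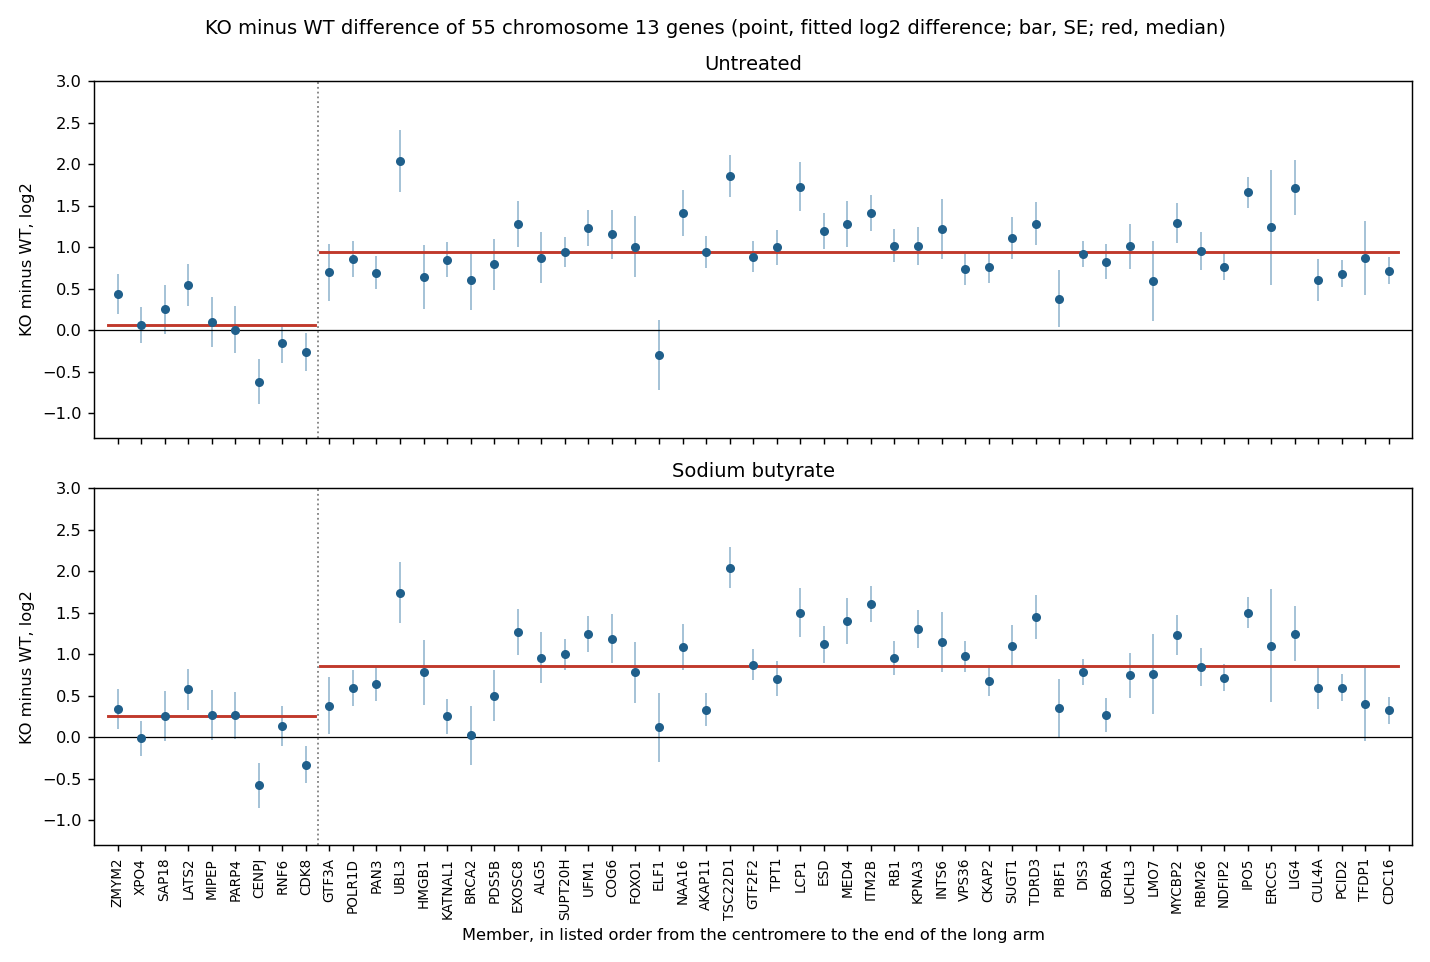
KO minus WT log2 difference of each of the 55 members in listed order from the centromere to the end of the long arm, in untreated cells (top) and butyrate-treated cells (bottom). Points are fitted differences, bars are standard errors, and red lines are medians over the 9 members left of the dotted line (0.06 and 0.26) and the 46 right of it (0.95 and 0.86).

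Cut into 5 runs of 11 members each, the untreated medians were 0.10, 0.87, 1.20, 1.01 and 0.87 from centromere to telomere. The treated medians in the same order were 0.26, 0.96, 1.09, 0.95 and 0.76. The first run differs because it holds the 9 proximal members together with GTF3A and POLR1D. From GTF3A on there was no linear trend. Over those 46 genes, order along the arm and the mean of both differences had a Pearson r of 0.02, against 0.41 over all 55. These genes share the same libraries, so the correlations are descriptions. A linear r cannot show a rise and fall, and the run medians were highest in the third run in both settings. At the distal end CUL4A, PCID2, TFDP1 and CDC16 had values of 0.60 to 0.87 untreated and 0.33 to 0.59 treated, below the median of the 46 in both settings.

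Genes of the same chromosome outside the list describe where the step lies. They belong to the chromosome median that chose the list, so they are not separate support for the shift. The members flanking it are CDK8, which starts at 26254129, and GTF3A, which starts at 27424619 (RefSeq GRCh38.p14). Between them, USP12, a deubiquitinase gene starting at 27066156, was already higher in KO, by 0.95 (SE 0.24) untreated and 0.92 (SE 0.24) treated. RPL21, a ribosomal protein gene with processed copies elsewhere that may share its reads, followed with 1.09 (SE 0.29) and 0.79 (SE 0.29). On the centromere side, NUP58, a nuclear pore gene starting at 25301625, differed by 0.12 (SE 0.19) and 0.03 (SE 0.19). Only WASF3 was tested between CDK8 and USP12 with a position in the table, at 1.43 CPM or less on average in every group (1.09, SE 1.26, untreated), so the step is placed no more finely than between CDK8 and USP12. Over the 27 tested chromosome 13 genes outside the list that start before USP12, the medians were 0.35 and 0.29. Over the 190 from USP12 on they were 0.98 and 0.87. The cut at USP12 was placed where these values rise, so the contrast of the medians is a description.

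Within the proximal 9 the values were not all alike. ZMYM2, a zinc finger protein of a corepressor complex, and LATS2, a Hippo pathway kinase, open the list with XPO4 and SAP18 between them, and differed by 0.43 (SE 0.24) and 0.54 (SE 0.25) in untreated cells. LATS2 stayed higher in treated cells (0.58, SE 0.25), and its KO libraries were above its WT libraries in both settings. The non-members MRPL57, ZDHHC20 and MICU2, which follow LATS2, had untreated values of 0.53, 0.42 and 0.54. From MIPEP to CDK8 the 5 members lay between -0.62 and 0.10 untreated and between -0.58 and 0.27 treated.

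MIPEP, which encodes a mitochondrial intermediate peptidase, was the member nearest the median of the first run. Its replicates 1 to 3 held 19, 11 and 11.6 CPM in untreated WT and 17.4, 14.1 and 12.9 CPM in untreated KO, and 10.6, 10.9 and 8.55 CPM in treated WT and 8.59, 15.2 and 12.4 CPM in treated KO. The genotypes overlapped in both settings, and the difference was 0.10 (SE 0.30) and 0.27 (SE 0.30).

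CENPJ, a centriole assembly gene, had the lowest mean difference of all members. Untreated WT held 49.3, 81.0 and 50.9 CPM and untreated KO 38.2, 45 and 34.5 CPM, with every KO library below every WT library, as for 20.2% of all tested genes. Treated WT held 30.5, 54.5 and 50.9 CPM and treated KO 24.1, 31.1 and 35.8 CPM, which overlapped. The differences were -0.62 (SE 0.27) and -0.58 (SE 0.27).

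CDK8, the kinase of the Mediator complex, is the last member before the step. Untreated WT held 40.8, 68.2 and 45.5 CPM and untreated KO 48.6, 44.7 and 35.5 CPM, so the genotypes overlapped. Treated WT held 45.3, 42 and 48.9 CPM and treated KO 39.4, 29.3 and 39.6 CPM, with every KO library lower, as for 16% of all tested genes. The differences were -0.26 (SE 0.23) and -0.33 (SE 0.23). Leaving out replicate 2 of untreated WT moved the untreated value to -0.01.

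Beyond the step 45 of 46 members were higher in KO in untreated cells and 46 of 46 in treated cells. The 3 KO libraries lay above the 3 WT libraries for 42 of the 55 members untreated, where 22.2% of all tested genes did, and for 33 treated, where 17.9% did. Because this contrast chose the members, nothing is read from these counts. The KO libraries lay above the WT libraries in both settings for 32 members, in untreated cells alone for 10, in treated cells alone for ERCC5, and in neither for 12. The 12 were XPO4, SAP18, MIPEP, PARP4, CENPJ, RNF6 and CDK8 before the step and HMGB1, BRCA2, ELF1, PIBF1 and LMO7 after it. Of these, CENPJ in untreated cells and CDK8 in treated cells had every KO library below every WT library.

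**Figure D2:**
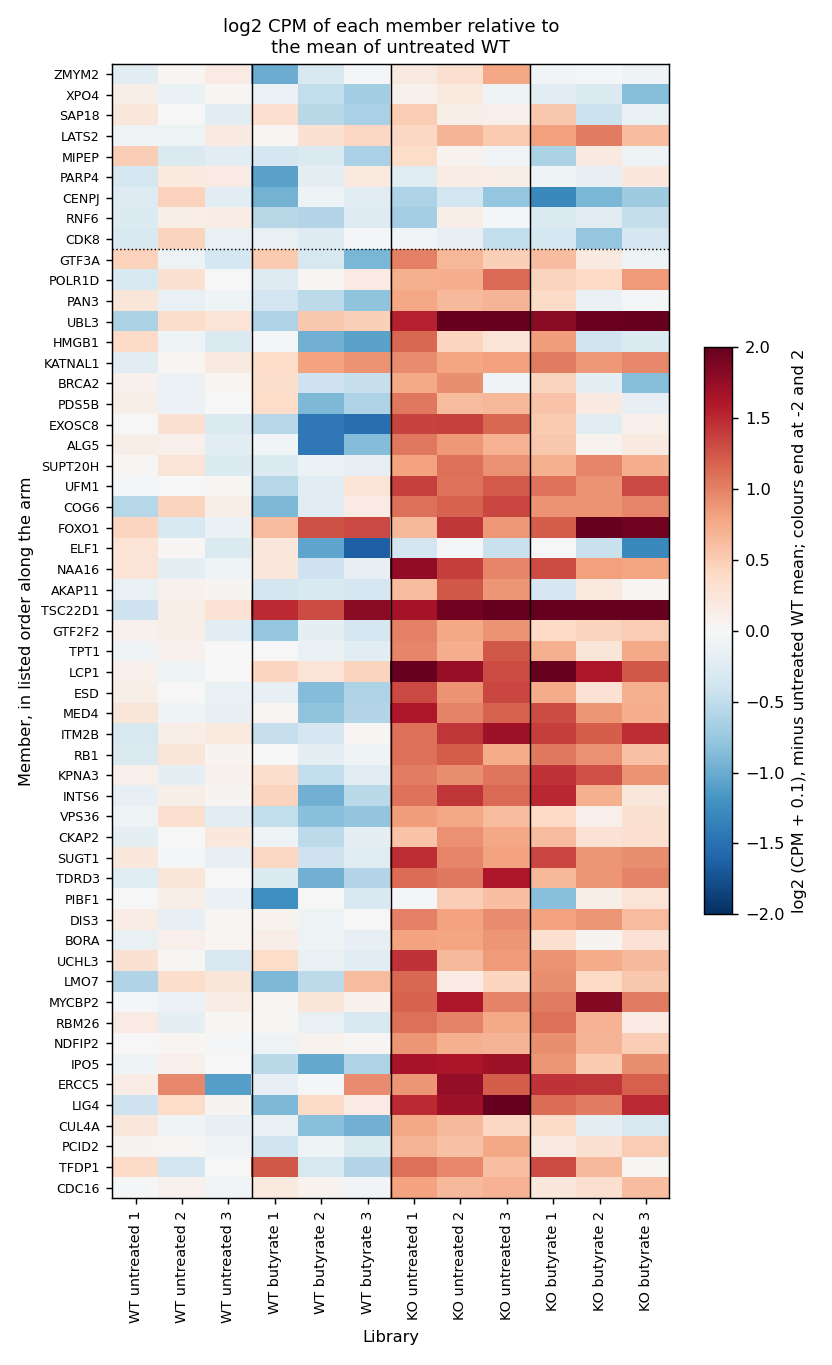
Log2 CPM of each member (rows, in listed order) in each of the 12 libraries (columns), minus its mean in untreated WT. Blue is lower, red is higher and colours end at -2 and 2. The dotted line separates the 9 proximal members from the 46 that are mostly red in KO. Of the 9, CENPJ and CDK8 are lower, and LATS2 higher, in every KO library than their untreated WT means.

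Members close to the median of their run show the usual size of the difference. ALG5, a glucosyltransferase of N-glycan assembly, held 24.9, 24.6 and 19.6 CPM in untreated WT and 47.6, 41.7 and 36.9 CPM in untreated KO. In treated WT it held 22.1, 8.41 and 12.6 CPM and in treated KO 33.3, 24.1 and 26.1 CPM. Every KO library was above every WT library of its setting, with differences of 0.87 (SE 0.31) and 0.96 (SE 0.31).

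ESD, an S-formylglutathione hydrolase, lies in the middle run. It held 111, 103 and 93.2 CPM in untreated WT and 255, 191 and 256 CPM in untreated KO. In treated WT it held 91.1, 56 and 66.1 CPM and in treated KO 171, 124 and 167 CPM. All KO libraries lay above the WT libraries of their setting, and the differences were 1.20 (SE 0.22) and 1.12 (SE 0.22).

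UCHL3, a ubiquitin hydrolase, held 18, 14.8 and 11.7 CPM in untreated WT and 40.1, 23 and 26.5 CPM in untreated KO. In treated WT it held 18.9, 13.2 and 12.6 CPM and in treated KO 27.4, 24.6 and 22.9 CPM. All KO libraries were higher, by 1.01 (SE 0.27) and 0.75 (SE 0.27).

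NDFIP2, an adaptor of NEDD4-family ubiquitin ligases, was among the steadiest members. Untreated WT held 52.8, 53.7 and 50.7 CPM and untreated KO 97.1, 85.9 and 84.3 CPM. Treated WT held 49, 54.8 and 53.1 CPM and treated KO 100.2, 83.9 and 73.6 CPM. The groups were well apart, with differences of 0.77 (SE 0.16) and 0.72 (SE 0.16).

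The 3 members with the highest mean difference were TSC22D1, UBL3 and LCP1. UBL3, a membrane-anchored ubiquitin-like protein, held 3.47, 6.91 and 6.59 CPM in untreated WT and 15.9, 28.1 and 25.6 CPM in untreated KO. It held 3.47, 7.94 and 7.60 CPM in treated WT and 19.2, 21.5 and 23.1 CPM in treated KO. Every KO library held more than every WT library, and the differences were 2.03 (SE 0.37) and 1.74 (SE 0.37).

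LCP1 encodes L-plastin, an actin-bundling protein of blood cells. It held 260, 226 and 239 CPM in untreated WT and 1001, 809 and 594 CPM in untreated KO, and 324, 292 and 327 CPM in treated WT and 1359, 740 and 571 CPM in treated KO. Replicate 1 was highest and replicate 3 lowest in both KO groups, and all were above WT. The differences were 1.73 (SE 0.30) and 1.5 (SE 0.30), and without replicate 1 of treated KO the treated value was 1.06.

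ELF1, an ETS transcription factor, was the only member beyond the step with a lower level in untreated KO. It held 93.9, 78.2 and 62.9 CPM in untreated WT and 59.1, 75.1 and 56.9 CPM in untreated KO. In treated WT it ranged from 24.8 to 90.5 CPM (90.5, 37.1 and 24.8) and in treated KO from 31.4 to 77.1 CPM (77.1, 56.8 and 31.4), so genotypes overlapped and replicate 1 was highest in both. The differences were -0.30 (SE 0.42) and 0.12 (SE 0.42). The treated value lay between -0.23 and 0.82 as single libraries were left out, the extremes coming without replicate 3 and without replicate 1 of treated WT. Its neighbours in the list, FOXO1 (1.01, SE 0.37) and NAA16 (1.41, SE 0.28), were higher in untreated KO. In treated cells BRCA2 was nearer to no difference than ELF1, at 0.02 (SE 0.35), after 0.60 (SE 0.35) untreated. KATNAL1, BORA, CDC16, AKAP11 and PIBF1 lay at 0.25 to 0.35 in treated cells.

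The shift was seen in each library. Relative to the mean of untreated WT, the median over the 46 distal members was -0.01 to 0.03 in the untreated WT libraries and 0.88 to 1.05 in the untreated KO libraries. It was -0.26 to -0.04 in treated WT and 0.63 to 0.86 in treated KO. Over the 9 proximal members the KO libraries had medians of -0.02 to 0.13 untreated and -0.22 to -0.16 treated, and treated WT had -0.34 to -0.21. The median over all tested genes stayed between -0.03 and 0.06.

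**Figure D3:**
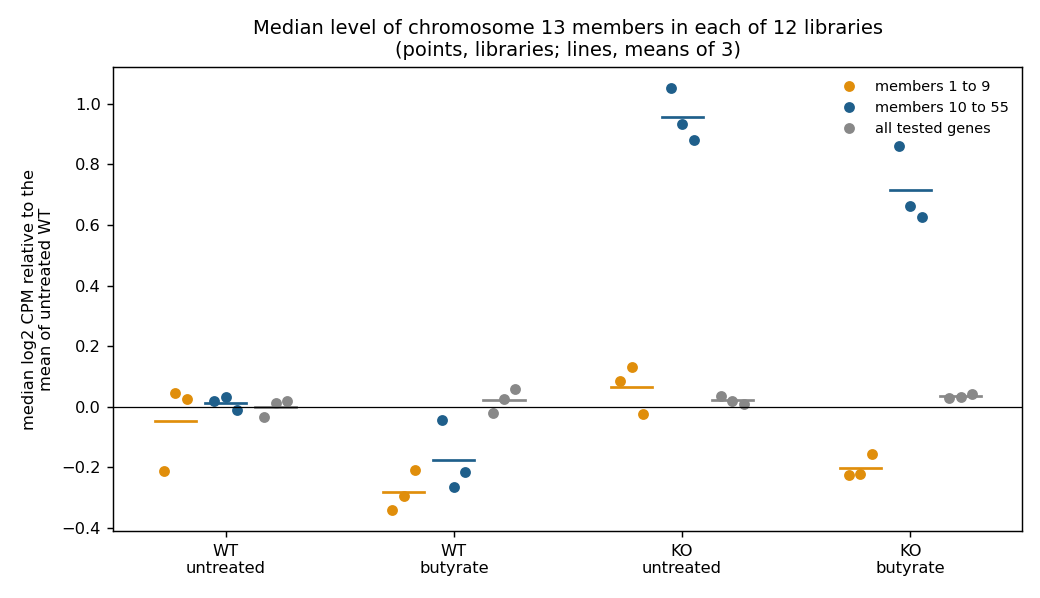
Median log2 CPM, relative to the mean of untreated WT, over the 9 proximal members (orange), the 46 distal members (blue) and all tested genes (grey), with 1 point per library and a line at the mean of 3. The distal members lie at 0.63 to 1.05 in the 6 KO libraries and at or below 0.03 in the 6 WT libraries, while the proximal members lie between -0.34 and 0.13 in all 12 libraries.

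By role, the distal members of every group had a positive median in both settings. The 11 genes of chromatin and transcription had 0.88 untreated and 0.78 treated; among them GTF2F2, a TFIIF subunit, differed by 0.88 (SE 0.19) and 0.87 (SE 0.19), and RB1, the retinoblastoma cell cycle regulator, by 1.02 (SE 0.20) and 0.95 (SE 0.20). The 7 genes of RNA processing, decay and export had 0.95 and 0.85, with DIS3, an exosome nuclease, at 0.92 (SE 0.16) and 0.79 (SE 0.16). The import receptors KPNA3 and IPO5 had 1.01 and 1.66 untreated and 1.30 and 1.5 treated. The DNA repair genes BRCA2, ERCC5 and LIG4 had 0.60 (SE 0.35), 1.24 (SE 0.69) and 1.72 (SE 0.33) untreated, ERCC5 resting on 5 to 44 counts per library. The 7 genes of ubiquitin-like and other protein modification had 1.23 and 1.09, and the 9 genes of membrane traffic, cytoskeleton and metabolism 1.00 and 0.97. The 7 genes of cell division had 0.79 untreated and 0.35 treated, the lowest of the groups in treated cells; KATNAL1, a katanin-like microtubule-severing protein, had 0.85 (SE 0.21) and 0.25 (SE 0.21), and BORA, an activator of mitotic kinases, 0.83 (SE 0.21) and 0.27 (SE 0.21). The roles were assigned by hand and no role was tested against another.

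How evenly the distal members shared the shift was described by their spread. The standard deviation of the 46 log2 differences was 0.41 untreated and 0.45 treated, against a median standard error of 0.25 for a single gene. A fold between 1.5 and 2.5 held for 37 of 46 untreated, with 2 below and 7 above, and for 29 of 46 treated, with 10 below and 7 above. Members were ordered much alike in both settings, with an r of 0.84 between untreated and treated differences over the 46. Neither the mean level (r 0.04) nor gene length (r -0.09) went with the size of the difference. These are descriptions across genes that share libraries, and the treated and untreated values use different libraries. On a log2 scale a 2-fold level is 1.00, a ratio of 3 to 2 is 0.58 and a ratio of 4 to 3 is 0.42. Without DNA copy numbers the values cannot be set against the dose of the genes, so buffering at the transcript level could not be computed. The tested chromosome 13 genes from USP12 on, members included, were also split by mean level. The untreated median was 0.99 over the 81 genes with the highest levels (interquartile range 0.79 to 1.27), 1.06 over the 76 in the middle (interquartile range 0.70 to 1.51) and 0.65 over the 79 with the lowest (interquartile range -0.56 to 1.75).

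Chromosome 13 had the highest median KO minus WT difference of 23 chromosomes in both settings, 0.93 untreated and 0.82 treated over 272 tested genes. The list was picked because this median was higher in KO, so the rank restates the choice and is a description. Chromosome 14 followed with 0.63 and 0.56, and chromosome 3 with 0.45 and 0.45. The share of tested genes higher in KO was 82.7% untreated and 83.75% treated on chromosome 14. On chromosome 13 it was 81.25% and 82.4%.

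Several members are subunits of complexes whose other subunits lie on other chromosomes, and 75 such partners were tested. Unlike the members, the partners had no common shift: their median was -0.09 untreated and 0.01 treated. In untreated cells 3 partners were called higher in KO and 5 lower by edgeR (10.7%, against 22.6% of all tested genes, 11.7% higher and 10.9% lower). In treated cells 0 were higher and 6 lower (8%, against 19% of all tested genes, 10.1% higher and 8.89% lower). With the replicate number as a block, 19 partners untreated (25.3%) and 12 treated (16%) were called, against 33% and 29.2% of all tested genes. With DESeq2, 17 (22.7%) and 10 (13.3%) were called, against 28.5% and 25.2%. The partners were not chosen by this contrast, so their calls are tests.

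EXOSC8 and DIS3, a core subunit and a nuclease of the RNA exosome, were higher by 1.27 and 0.92 untreated, while the median of 9 other exosome genes was 0.08 and 0 of them was called, with EXOSC9 at 0.66 (edgeR adjusted p = 0.0515) and EXOSC6 at 0.84 (adjusted p = 0.12). MED4 was higher by 1.28, against a median of -0.10 over 28 Mediator genes outside the chromosome. Of these, MED6 on chromosome 14 rose by 1.01 (adjusted p = 0.0280) and MED23 fell by 0.87 (adjusted p = 0.00346). COG6, of the Golgi tethering complex COG, was higher by 1.15, against a median of -0.16 over 6 partners, of which COG4 rose by 0.68 (adjusted p = 0.00966) and COG5, on chromosome 7, fell by 0.94 (adjusted p = 0.00767). COG3, also on chromosome 13 but outside the list, differed by 0.75. VPS36, of the ESCRT-II membrane-sorting complex, was higher by 0.73, with its partners SNF8 at 0.07 and VPS25 at 0.59, the latter called (adjusted p = 0.0465). CDC16, of the anaphase-promoting ubiquitin ligase, was higher by 0.72, against a median of 0.06 over 13 partners, of which ANAPC16 fell by 0.76 (adjusted p = 0.0355). INTS6, of the Integrator complex that cleaves nascent RNA, was higher by 1.22, against -0.16 over 13 partners, of which INTS1 on chromosome 7 fell by 0.80 (adjusted p = 0.00340). Among direct binding pairs, POLR1D was higher by 0.85 and its partner POLR1C fell by 0.89 (adjusted p = 0.0214), while PAN3 was higher by 0.69 and PAN2 stood at -0.53. LIG4 was higher by 1.72 and XRCC4 at 0.62, and GTF2F2 higher by 0.88 and GTF2F1 at -0.41; neither partner was called.

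**Figure D4:**
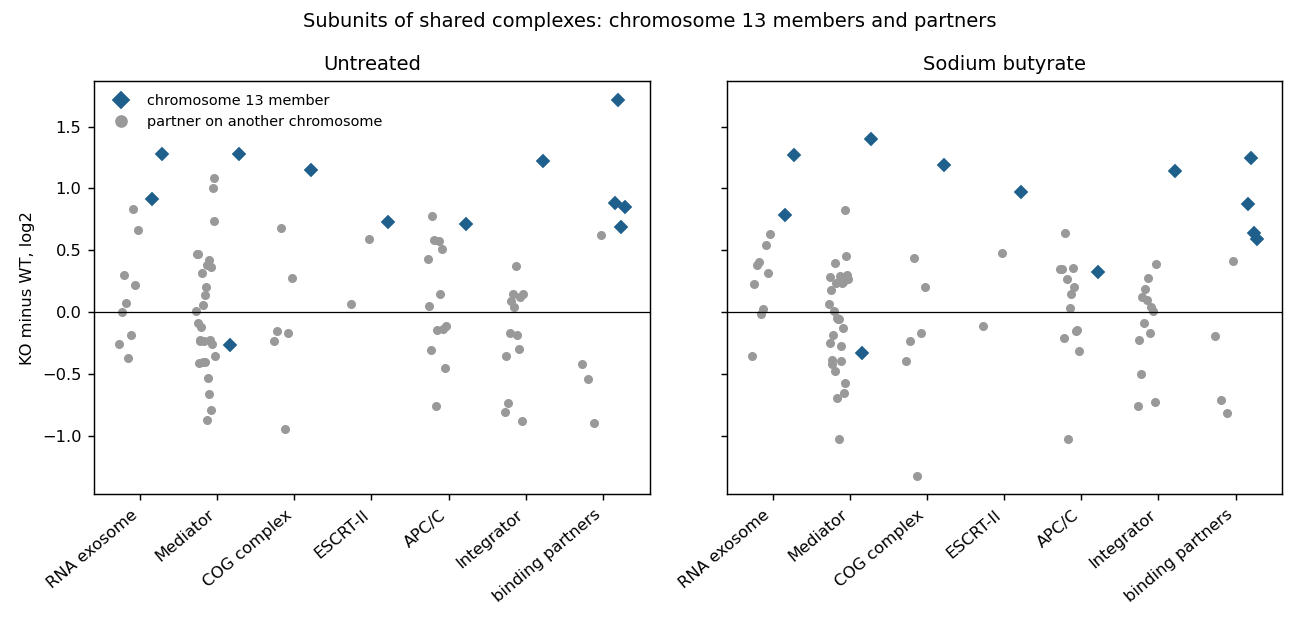
KO minus WT log2 difference of members (blue diamonds) and of their partners on other chromosomes (grey circles) in 6 complexes and a group of direct binding pairs, untreated (left) and treated (right). Members other than CDK8 lie at 0.33 or above in both settings, while the partners' medians are -0.09 and 0.01.

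Butyrate was a comparison that did not choose the members, so its tests are given. Its libraries are those of the KO against WT comparisons, so the tests are not independent of the choice. In WT 1 of 55 members was called by edgeR and in KO 4 of 55, against 2.35% and 3.4% of all tested genes. TSC22D1 rose in both genotypes, where 1.8% (WT) and 2.8% (KO) of all tested genes rose. EXOSC8, AKAP11 and IPO5 fell in KO, where 0.595% fell, and 0 members fell in WT, where 0.55% did and where DESeq2 called EXOSC8, VPS36 and IPO5 lower. At an unadjusted p under 0.05, 12 members passed in WT and 12 in KO in either direction (21.8% each), close to the 18% and 19.8% of all tested genes that did. Most members were slightly lower after butyrate, 44 of 55 in WT (median -0.20) and 46 of 55 in KO (median -0.29). All treated libraries were below all untreated ones for 9 members in WT and 17 in KO, where 10.4% and 11.8% of all tested genes were, and above them for 4 members in WT and 1 in KO, where 11.3% and 12.6% were. The median over all tested genes was 0.02 and 0.00, and over the 8628 with a mean level of 16 CPM or more, as 48 members have, it was -0.08 and -0.12, a comparison added after the values were seen.

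TSC22D1, a leucine zipper transcription regulator induced by TGF-beta, had the largest rise. It held 16.5, 23.8 and 26.9 CPM in untreated WT and 61.8, 54.5 and 76.5 CPM in treated WT. It held 70.0, 84.3 and 89.3 CPM in untreated KO and 346, 204 and 244 CPM in treated KO. Every treated library was above every untreated one of its genotype, and untreated KO reached the range of treated WT. Butyrate raised it by 1.52 in WT (SE 0.25, edgeR adjusted p = 0.0126) and by 1.71 in KO (SE 0.25, adjusted p = 0.00538). The call in WT was lost in 2 of 12 fits that left out a library, without replicate 1 or 2 of untreated WT (largest adjusted p = 0.0610), and with only the groups compared in the fit (adjusted p = 0.0556). The KO minus WT difference was 1.86 untreated and 2.04 treated (SE 0.25 for both). An antisense gene, TSC22D1-AS1, overlaps it, and without strand information their reads cannot be told apart.

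EXOSC8 held 172, 174 and 149 CPM in untreated KO and 96.3, 57.4 and 71.9 CPM in treated KO. In WT it held 66.6, 82.9 and 55 CPM untreated and 45.3, 24.9 and 23.5 CPM treated. Treated libraries were lower than untreated ones in both genotypes without overlap, and treated KO overlapped untreated WT. It fell by 1.13 in KO (SE 0.28, edgeR adjusted p = 0.0435), and the WT value was -1.13 (SE 0.28, adjusted p = 0.0558). The KO call held in 3 of 12 fits with a library left out and was lost with at least 10 counts in every library (adjusted p = 0.0568). With the replicate number as a block EXOSC8 was called in WT too, at -1.18 (adjusted p = 0.0103), and likewise with library size alone, without a filter and with DESeq2. EXOSC8 overlaps the member SUPT20H, a SAGA complex subunit, which may share its reads and moved by -0.14 in KO.

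AKAP11, an anchor of protein kinase A, held 114, 175 and 135 CPM in untreated KO and 58.2, 84.3 and 75.8 CPM in treated KO. In WT it held 66.5, 77.9 and 76.5 CPM untreated and 56.8, 59.2 and 57.4 CPM treated. Treated libraries were again lower without overlap in both genotypes, with the wider gap in KO. It fell by 0.96 in KO (SE 0.20, edgeR adjusted p = 0.0256), and the WT value was -0.35 (SE 0.20, adjusted p = 0.385). The KO call held in 8 of 12 fits with a library left out. It was lost with library size alone (-0.83, adjusted p = 0.0808) and with only the groups compared in the fit (-0.94, adjusted p = 0.0671). The treated KO minus WT difference was 0.33 against 0.94 untreated.

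IPO5, an importin that carries ribosomal proteins and histones into the nucleus, was the most abundant of these 4. It held 922, 911 and 950 CPM in untreated KO and 540, 420 and 561 CPM in treated KO, and 277, 314 and 290 CPM in untreated WT and 202, 144 and 191 CPM in treated WT. All 4 groups were apart, with KO above WT in both settings and treated below untreated in both genotypes. It fell by 0.87 in KO (SE 0.19, edgeR adjusted p = 0.0281), and the WT value was -0.71 (SE 0.19, adjusted p = 0.0687). The KO call held in 7 of 12 fits with a library left out and was lost with only the groups compared in the fit (adjusted p = 0.0744). With the replicate number as a block IPO5 was called in WT too, at -0.73 (adjusted p = 0.0204), and likewise with DESeq2.

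**Figure D5:**
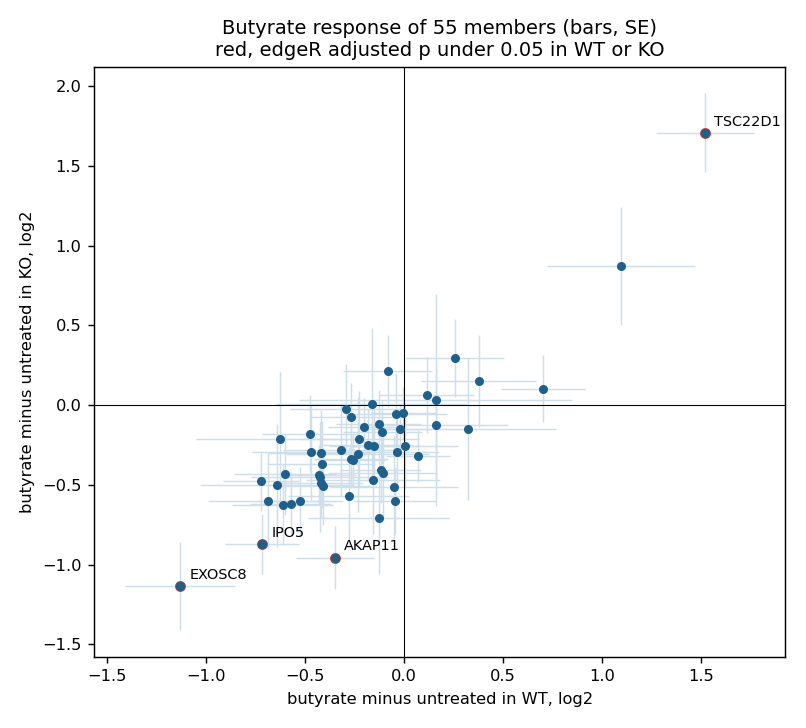
Butyrate effect on each of the 55 members in WT (horizontal) and KO (vertical), as fitted log2 differences with standard errors. TSC22D1 stands at 1.52 and 1.71, and the called members EXOSC8, AKAP11 and IPO5 lie below 0 on both axes.

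The effects in both genotypes went together over the 55 members, with a Pearson r of 0.84 and a Spearman rho of 0.67, as a description. The difference of the effects, KO minus WT, was called for 0 of 55 members and for 0 of 15805 tested genes by edgeR. At an unadjusted p under 0.05, 1 member and 658 genes passed, the member being AKAP11 (-0.61, SE 0.28, adjusted p = 1.00). DESeq2 gave 0 members and 86 genes. A p above the threshold does not show that the genotypes respond alike.

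Counts of members called depended on single libraries. In WT 0 members were called without replicate 1 of untreated WT (0.39% of all tested genes) or without its replicate 2 (0.262%). In KO 1 was called without replicate 2 or 3 of untreated KO (0.292% and 1.75% of all tested genes). The same held without replicate 2 or 3 of treated KO (0.526% and 1.54%). Without replicate 1 of treated WT, 8 members were called in WT (14.5%), while 1243 of 16281 tested genes were (7.63%), with KATNAL1 rising by 0.84 and EXOSC8, ALG5, ELF1, VPS36, IPO5 and CUL4A falling by 1.5, 1.14, 1.35, 0.84, 0.82 and 0.92. With the replicate number as a block, 7 members were called in WT (12.7%) and 8 in KO (14.5%), while 1361 (8.61%) and 1852 (11.7%) of all tested genes were, and PAN3, HMGB1 and CUL4A were among those that fell in both. HMGB1, a chromatin protein, and TPT1, the abundant translationally controlled tumour protein, have processed copies elsewhere in the genome, so their counts may be shared. In all, 26 members overlap another annotated gene, among them GTF3A with MTIF3, POLR1D with LNX2, RB1 with LPAR6, DIS3 with BORA and CUL4A with PCID2. Their values can hold reads of the overlapping gene.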

How the data were processed

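RNA sequencing counts were analysed for 12 K562 libraries. The authors deposited raw counts by gene symbol, 1 column per library; FastQC 0.12.1, STAR 2.7.11b and the build hg38 are named per the submitters' processing notes, and the counting tool and use of strand are not given in the sources used here. Groups and replicate numbers came from the sample titles. In R 4.3.3, genes were filtered with filterByExpr (minimum count 10), leaving 15805 of 28278, scaled by TMM, and fitted in edgeR 4.0.16 by the quasi-likelihood method with 1 mean per group over all 12 libraries. The Benjamini-Hochberg adjustment covered every tested gene of a contrast (threshold 0.05). Standard errors are the absolute log2 difference divided by the root of F, and log2 CPM used a prior count of 2. The members, lists and naming rule were chosen with earlier results of these data known. Members given in full are the 3 highest and 3 lowest by mean KO minus WT difference, those called for butyrate, and the nearest to each run's median. Positions and promoters came from RefSeq GRCh38.p14, which matched 15540 tested genes, 368 of them by a synonym; 6 neighbouring pairs of the list are out of start order. Scripts were tested on simulated data.

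Same-numbered libraries deviated together from their group means, with correlations of 0.195 to 0.409 for butyrate in WT and 0.147 to 0.468 in KO. They were 0.210 to 0.361 for untreated and 0.315 to 0.595 for treated KO against WT, so every pair exceeded the 0.1 limit. Libraries of different numbers reached at most 0.186, 0.123, 0.0692 and 0.343 in the same order. In the treated KO against WT comparison this exceeded the smallest same-number value of 0.315. The numbers were taken as pairs from the data and not the labels, and only in the fit with a replicate block. The main fit has no block, so its standard errors, adjusted p-values and calls ignore the pairs. Alternatives were another scaling, DESeq2 1.42.0, other filters, a replicate block, left-out libraries and fits of only the groups compared. No pair of replicates held the same library (smallest chi-square per degree of freedom 40.0).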

Additional observations from a re-analysis of the deposited data

How the results depend on the processing

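No called value changed sign under the alternatives run; among values without a call, ELF1 (treated) and MIPEP (untreated) changed sign with single libraries left out, to -0.23 and -0.04. Values below are KO minus WT medians or counts of calls. The untreated median of the 11 members around RB1 to UCHL3 was 0.98 with library size alone, with DESeq2 size factors, with DESeq2's Wald test and with a minimum of 10 counts per library, 0.97 when centred on genes outside chromosomes 7, 13 and 18, and 0.89 without the 4 libraries numbered 1. Centring also gave 1.15 for FOXO1 to ITM2B and 0.90 for the 46 distal members, and library size alone gave 1.19 for FOXO1 to ITM2B treated. The run LMO7 to CDC16 had 0.79 with at least 10 counts in every library and 0.95 without the libraries numbered 1. Without these 4, the run ZMYM2 to POLR1D had 0.20 untreated and 0.082 treated, and the 9 proximal members 0.046 treated. Partners called were 17 untreated and 10 treated with DESeq2, 19 and 12 with the replicate block, 10 treated without the libraries numbered 1, and 14 untreated with only the groups compared. Members called for butyrate in WT were 2 with library size alone, 2 without a filter, 6 with DESeq2, 7 with the replicate block, 11 without the libraries numbered 1 and 0 with only the groups compared. In KO they were 8 with the replicate block, 8 without the libraries numbered 1 and 2 with only the groups compared. The block changed no other count of calls over members by more than 1.5 times, and members called for the interaction were 0 throughout.

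With single libraries left out, the untreated medians of the 5 runs ranged from 0.058 to 0.34, 0.79 to 0.92, 1.09 to 1.30, 0.88 to 1.01 and 0.76 to 1.04. Treated, the second to the fourth run ranged from 0.69 to 0.99, 0.97 to 1.27 and 0.78 to 0.99, and all members from 0.66 to 0.87. The 9 proximal members ranged from -0.036 to 0.12 untreated and 0.051 to 0.26 treated, and the 46 distal ones from 0.90 to 0.97 and 0.79 to 0.95. Partners called ranged from 5 to 15 untreated, members called for butyrate from 0 to 8 in WT and from 1 to 4 in KO. With 1 of 3 libraries left out, the others are assumed to vary as all groups do. Where leaving out a library moved a value, the cause was not tested. ERCC5, at 5 to 44 counts, has the least depth of the members.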
